A study of Mus musculus with 9 samples.

Results

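The pyruvate dehydrogenase complex, its kinases and phosphatases, the enzymes of the citric acid cycle and the enzymes that feed or exchange metabolites with the cycle were followed as 35 genes in the mouse hippocampus. The members were taken by gene name among the non-control probes of an Agilent mouse gene array, and all 35 were found among the 31093 gene names of the array and the 21905 that kept a measured value. The question was whether the amount of IF1, the inhibitor protein of the mitochondrial ATP synthase, went with a change in the transcripts of these enzymes. Male C57BL/6J mice of 9 months were compared in 3 genotypes with 3 mice each and 1 single-dye array per mouse. IF1-KO mice carry a floxed allele of *Atp5if1* (*Atpif1* on the array), the gene of IF1, from which Cre driven by the *Camk2a* promoter removes an exon, mostly in excitatory neurons of the forebrain, so that other neurons and glia keep the gene. IF1-TG mice express human IF1 from a tetracycline-regulated element through a transactivator driven by the same promoter. The third genotype is labelled control (CRL), and its alleles are not given for these arrays. RNA came from whole hippocampus, so that fewer cells of a type and less RNA per cell cannot be told apart.

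Pyruvate dehydrogenase joins glycolysis to the citric acid cycle by turning pyruvate into acetyl-CoA inside mitochondria. Its kinases switch the complex off by phosphorylation and its phosphatases switch it on. The cycle oxidises the acetyl group and hands electrons to the respiratory chain, whose proton gradient drives the ATP synthase that IF1 inhibits, and in brain it also exchanges carbon with glutamate and aspartate.

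A probe of 60 bases reports a short stretch of a transcript, and *Dld* and *Sdhb*, the members whose probes differed most among themselves, each have a pair of probes that gave different answers. Their sequences are shown 5′ to 3′ because the results turn on which stretch was read. The dimmer *Dld* probe lies at chr12:32018291-32018350 (mm9, minus strand) and has 1 reading frame without a stop codon, while the brighter *Dld* probe at chr12:32016889-32016948 (minus strand) has a stop codon in every frame and lies 1402 bases farther along the direction of transcription. For *Sdhb*, the dimmer probe is at chr4:140529606-140529665 (plus strand) with 1 frame free of stop codons, and the brighter probe, at chr4:140535052-140535111 (plus strand) and 5446 bases farther along, has a stop codon in every frame. The probes with a stop in every frame are shown by their last 30 bases, and capitals mark AATAAA, the usual polyadenylation signal.
Dld dimmer probe: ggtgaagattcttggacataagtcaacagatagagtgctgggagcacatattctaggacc
Dld brighter probe, last 30 bases: ggtttgaacagaatggaataaccatgtacc
Sdhb dimmer probe: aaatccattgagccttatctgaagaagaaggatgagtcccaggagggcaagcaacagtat
Sdhb brighter probe, last 30 bases: gcatatgtAATAAAcatttaagataaatag
On the probe strand alone, AATAAA occurred in 5 of the 49 kept probes of the members and in 13.6% of all 27991 kept probes. A stop codon in every frame was found in 17 of the 49 probes and in 20.5% of all kept probes.

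Values are log2 signals relative to the 75th percentile of each array, and a gene was called when 1 or more of its probes reached a 1.5-fold change with *P* under 0.05, before adjustment, in a limma fit of all 9 arrays. The share of probes well above background was 71.0% to 72.9% on IF1-KO arrays, 72.2% to 74.9% on CRL arrays and 66.7% to 69.5% on IF1-TG arrays. The *Atpif1* probe, which checks the labels, read 6.43 for the mouse labelled IF1-KO replicate 1, against 5.20 for replicate 2 and 5.53 for replicate 3, 6.19 to 6.34 in CRL and 6.38 to 6.51 in IF1-TG mice. The array labelled IF1-KO replicate 1 thus showed no reduction, and calls that change without it are given with the gene. Excitatory neuron markers such as *Camk2a* and *Slc17a7* were well above background on all 9 arrays for 7 of 7 genes. Among 11 lists of cell type and neighbouring tissue markers, the summed linear level of the microglia list was lower on the IF1-KO arrays (21.5 to 23.4) than on the CRL arrays (24.0 to 24.8) and the IF1-TG arrays (24.4 to 26.3). *Cx3cr1* of this list and *Gad1* of the interneuron list, each with an outlier spot on 1 array, were left out of the sums. The excitatory neuron list was also lower on IF1-KO arrays (35.8 to 38.3) than on IF1-TG arrays (40.0 to 41.6), as was the oligodendrocyte list (91.6 to 137 against 138 to 171). The summed level of no list separated IF1-TG from CRL arrays (the interneuron list came closest, at 28.6 to 43.44 against 43.28 to 45.0), and that of the choroid plexus list ranged from 2.16 to 183 over the 9 arrays. Of the pituitary list, *Gh* and *Prl* were well above background on the 3 CRL arrays and on no other, while *Pomc*, well above background on all 9 arrays, differed from CRL by 0.31 in IF1-TG and 0.53 in IF1-KO mice. All 5 striatum markers had negative differences from CRL in IF1-TG and in IF1-KO mice. Of the 4 thalamus markers, 2 were called upward in IF1-TG against CRL and 1 in IF1-TG against IF1-KO, beside calls of 5.59% and 4.70% of all genes. By the brightest probe, 1 and 0 of them were called, with median differences of 0.26 and 0.46. *Prkcd* alone was negative against CRL, at -0.05, and none was negative against IF1-KO. The part of these lists in the results below was not tested.

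The share of the 35 members called was 2.86% in each IF1-TG comparison and 0% in IF1-KO against CRL, not far from the shares of all genes given below. *Dld*, the gene of dihydrolipoamide dehydrogenase, was the only member called, by its dimmer probe, which read lower in IF1-TG mice than in either other genotype. It was 1 of 35 members in IF1-TG against IF1-KO, where 4.70% of all genes were called and 2.56% of all genes were called downward. The same 1 of 35 was called in IF1-TG against CRL, where 5.59% of all genes were called and 2.79% of all genes were called downward. No member was called in IF1-KO against CRL at 1.34% of all genes, and none of the members' probes had an unadjusted *P* value below 0.05 there in limma, where 3.24% of all genes did. With the *P* threshold alone, 1 member passed in IF1-TG against IF1-KO (8.83% of all genes) and 3 passed in IF1-TG against CRL (10.5% of all genes), namely *Dld*, *Suclg1* and *Pdp2*. No difference of a member passed after Benjamini-Hochberg adjustment over all kept probes, the smallest adjusted value being 0.46 (limma).

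Taking each gene by its brightest probe, the median log2 difference of the members was -0.03 in IF1-TG against IF1-KO, -0.02 in IF1-TG against CRL and -0.06 in IF1-KO against CRL. The medians over all 21905 genes were 0.0066, -0.00064 and -0.0083. The members' medians were small enough to depend on the processing. The first was 0.015 without IF1-TG replicate 1. The second was -0.11 with normexp and quantile normalization and -0.081 with slide as a fixed block, where IF1-TG rests on replicate 3 alone. The third was -0.12 with normexp and quantile normalization and -0.0053 without IF1-KO replicate 3. Members had a negative difference in 20, 23 and 22 of 35 cases respectively, or 57.1%, 65.7% and 62.9%, where all genes had one in 48.7%, 50.1% and 51.9%. The precision of the fit can be read from the 95% intervals. They lay inside a 1.5-fold change in both directions for 28, 26 and 26 of the 35 members, or 80%, 74.3% and 74.3%, and for 46.6%, 45.8% and 50.7% of all genes. The median half-width of the intervals was 0.30 for the members and 0.43 for all genes in each comparison, so these shares also follow the width of the intervals. The 3 arrays of the genotypes did not overlap for 3 members in IF1-TG against IF1-KO (13.4% of all genes), for 3 in IF1-TG against CRL (12.1%) and for 1 in IF1-KO against CRL (8.06%), or 8.57%, 8.57% and 2.86% of the members.

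**Figure D1:**
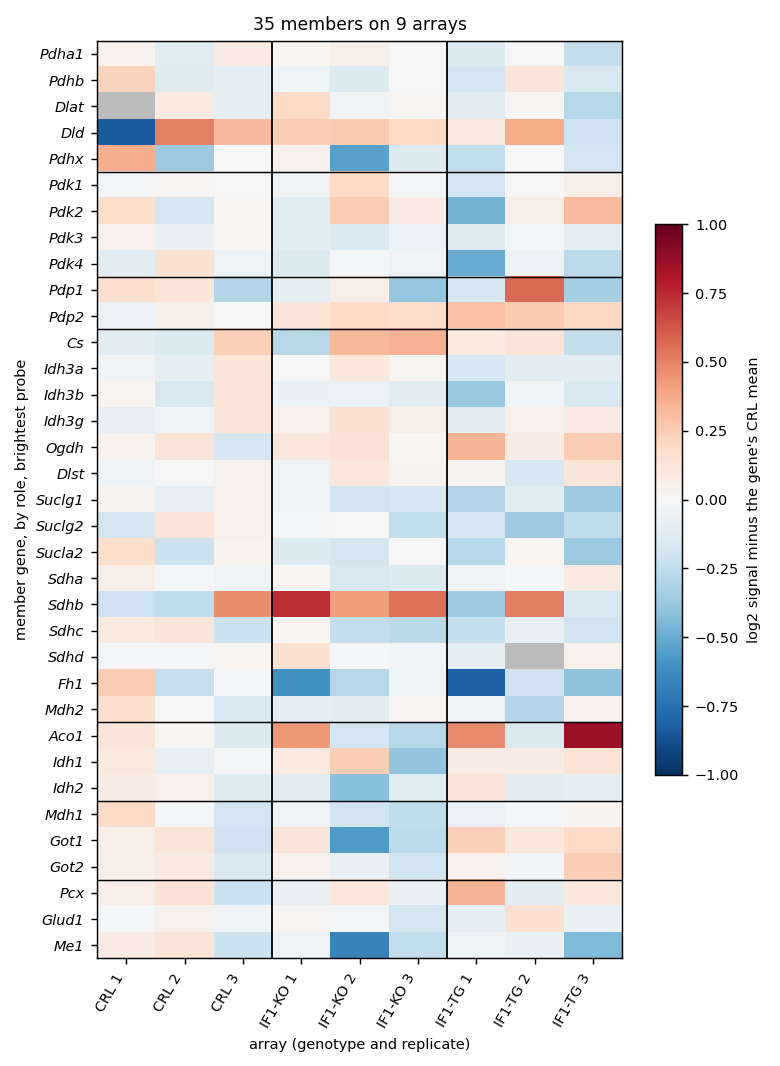
Log2 signal of each member's brightest probe minus the mean of its CRL arrays (colour) for the 35 members (rows, by role, separated by lines) on the 9 arrays (columns, by genotype). Grey cells are the outlier spots of Dlat on CRL replicate 1 and Sdhd on IF1-TG replicate 2, and most cells are pale, with Aco1 on IF1-TG replicate 3, Dld on CRL replicate 1, Fh1 on IF1-TG replicate 1 and the Sdhb row standing out.

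**Figure D2:**
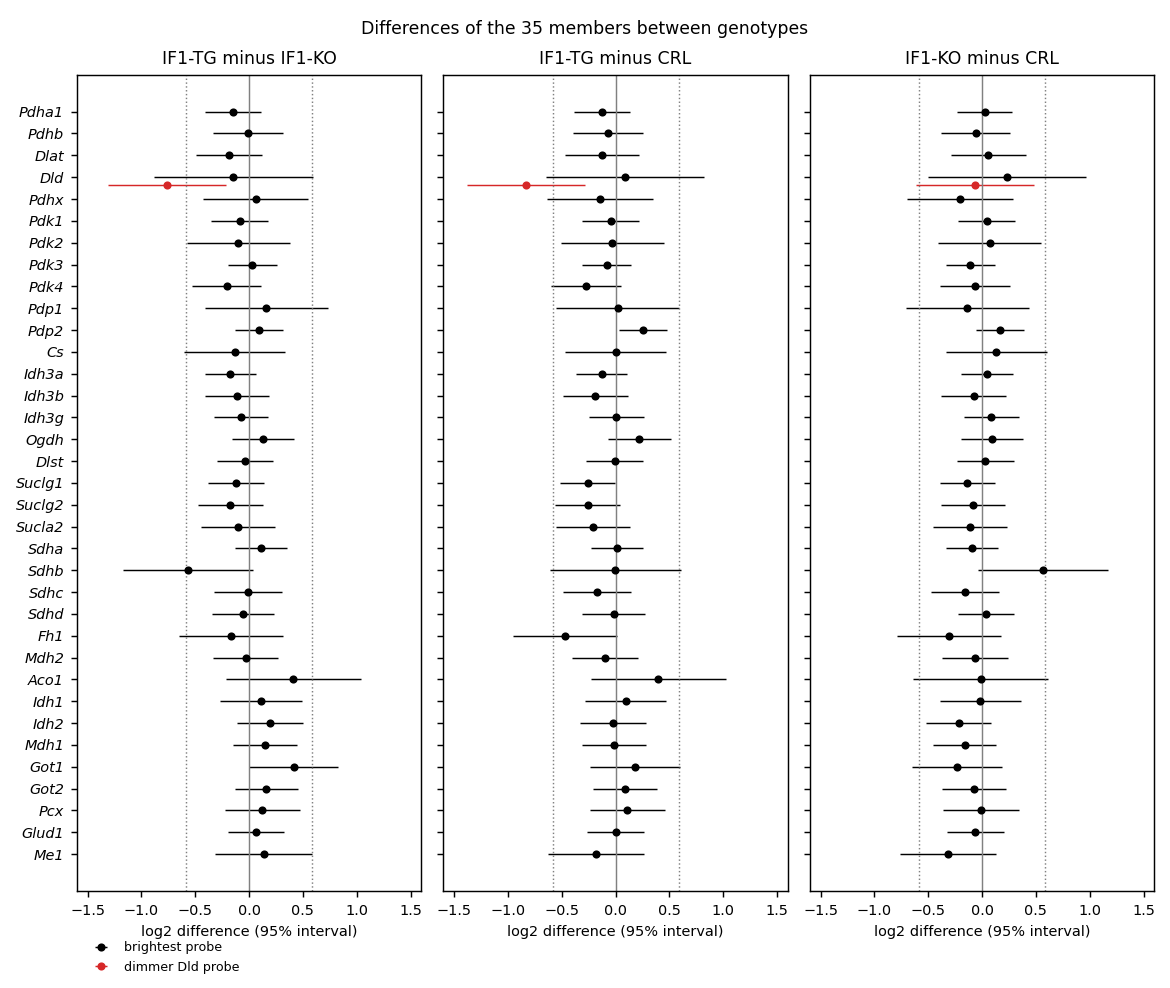
Log2 difference between genotypes with its 95% interval from the fit for the brightest probe of each of the 35 members (black) and for the dimmer Dld probe (red), with 1 panel per comparison and 3 arrays per genotype. Dotted lines mark a 1.5-fold change in either direction, and only the dimmer Dld probe lies beyond them, at -0.76 and -0.83 in the IF1-TG panels.

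The subunits of the complex are *Pdha1* and *Pdhb*, which form the decarboxylating enzyme, *Dlat*, the acetyltransferase core, *Pdhx*, which binds *Dld* protein to that core, and *Dld* itself, which regenerates the lipoyl arm and also serves the 2-oxoglutarate and branched-chain dehydrogenases and glycine cleavage. Apart from *Dld*, no subunit passed either threshold in this fit. *Pdha1*, the regulated subunit (chromosome X), read 1.83, 1.86 and 1.80 on the IF1-KO arrays, 1.84, 1.68 and 1.89 on the CRL arrays and 1.67, 1.81 and 1.57 on the IF1-TG arrays. The groups overlapped, with a log2 difference of -0.13 in IF1-TG against CRL (95% interval -0.39 to 0.13) and 0.02 in IF1-KO against CRL (-0.23 to 0.28). *Pdhb*, on its brightest of 3 probes, read 3.57, 3.48 and 3.61 in IF1-KO, 3.84, 3.48 and 3.52 in CRL and 3.42, 3.75 and 3.47 in IF1-TG mice. CRL replicate 1 was the highest of these values, and over its 3 probes and the 3 comparisons *Pdhb* differed by no more than 0.10 on the log2 scale.

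*Dlat* read 2.31, 2.09 and 2.13 in IF1-KO, 2.21 and 2.02 in CRL and 2.01, 2.13 and 1.83 in IF1-TG mice, its spot on CRL replicate 1 having been left out as an outlier. IF1-TG replicate 3 was the lowest value of *Dlat*, and the difference between IF1-TG and IF1-KO was -0.19 (95% interval -0.49 to 0.12). It was -0.38 with normexp and quantile normalization (unadjusted *P* = 0.025 in limma), short of the fold threshold. With slide as a fixed block it was -0.47, where IF1-TG rests on replicate 3 alone. *Pdhx* spread more, at 0.39, -0.20 and 0.20 in IF1-KO, 0.70, -0.03 and 0.34 in CRL and 0.09, 0.34 and 0.15 in IF1-TG mice. All 3 genotypes overlapped for *Pdhx*, and IF1-TG minus CRL was -0.15 (-0.64 to 0.34).

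The dimmer *Dld* probe, the first of the sequences above, read 1.14, 1.35 and 1.28 in IF1-KO mice, 1.53, 0.97 and 1.48 in CRL mice and 0.07, 0.97 and 0.44 in IF1-TG mice. IF1-TG replicates 1 and 3 were low, whereas IF1-TG replicate 2 (0.9716) lay just under CRL replicate 2 (0.9723), so that the groups did not overlap but touched. The group means were 1.26 ± 0.10 in IF1-KO, 1.33 ± 0.31 in CRL and 0.49 ± 0.45 in IF1-TG mice (SD, n = 3 each). IF1-TG was 1.70-fold below IF1-KO (log2 difference -0.76, standard error 0.24, unadjusted *P* = 0.012 and adjusted *P* = 0.66 in limma) and 1.78-fold below CRL (-0.83, standard error 0.24, unadjusted *P* = 0.0076 and adjusted *P* = 0.46 in limma). IF1-KO minus CRL was -0.07 (95% interval -0.61 to 0.48). On slide 2, which alone held all 3 genotypes, the log2 difference of IF1-TG replicate 3 was -0.70 from the array labelled IF1-KO replicate 1 and -0.81 from the mean of CRL replicates 1 and 2. With slide as a fixed block, the differences were -0.68 from IF1-KO and -0.82 from CRL. That fit cannot settle the call, because its IF1-TG side rests on replicate 3 alone. Without IF1-TG replicate 1, IF1-TG minus IF1-KO was -0.55, below the fold threshold, and the mean of both *Dld* probes was not called in either comparison.

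The brighter *Dld* probe gave smaller differences in IF1-TG mice than the dimmer one and did not pass. It read 1.61, 1.62 and 1.55 in IF1-KO, 0.53, 1.86 and 1.68 in CRL and 1.45, 1.73 and 1.16 in IF1-TG mice. CRL replicate 1 was the lowest of the 9 arrays on the brighter probe and the highest on the dimmer probe. IF1-TG minus CRL was 0.09 (95% interval -0.65 to 0.82) and IF1-TG minus IF1-KO -0.15 (-0.88 to 0.59), intervals that include the differences of the dimmer probe in the second case and not in the first. The sign of the first depends on CRL replicate 1: without that array it was -0.33, negative as on the dimmer probe. *Dld* therefore has 1 probe of 2 that passed. The paper lists *Dld* among the genes it measured by real-time PCR after its array, and reports that PCR of key genes bore the array out. Those PCR values were not examined here.

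**Figure D3:**
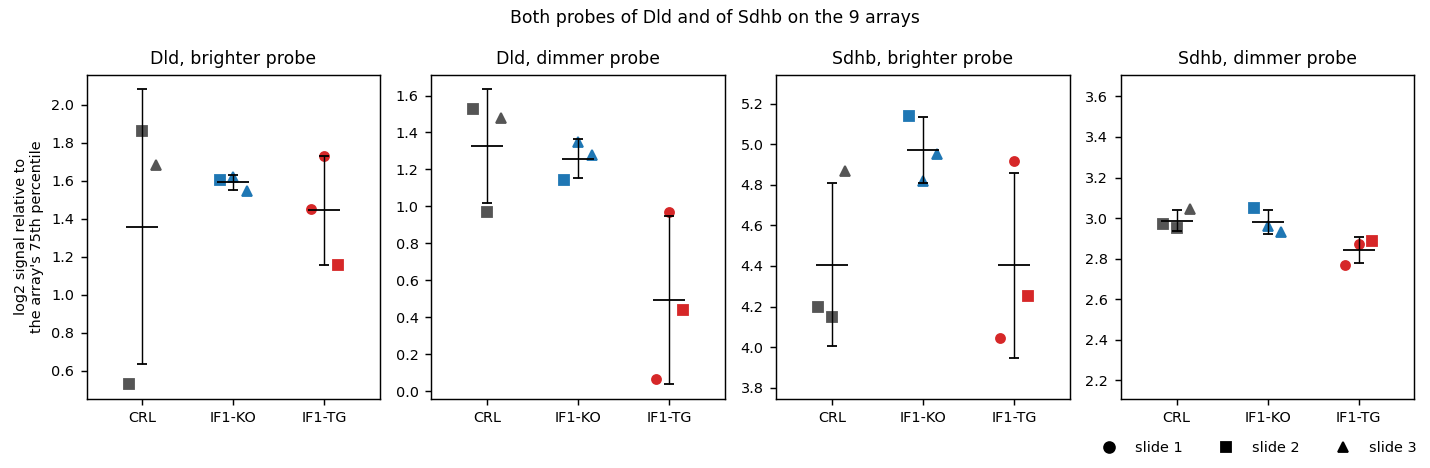
Log2 signal relative to the array's 75th percentile for both probes of Dld and of Sdhb in each genotype, with points for single arrays (shape by slide) and bars for the mean ± SD of 3 arrays; the vertical axes differ. The dimmer Dld probe is lowest in IF1-TG mice (0.07, 0.44 and 0.97), and the brighter Sdhb probe falls into a high set of 5 arrays from 4.82 to 5.14 and a low set of 4 from 4.04 to 4.25.

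**Figure D4:**
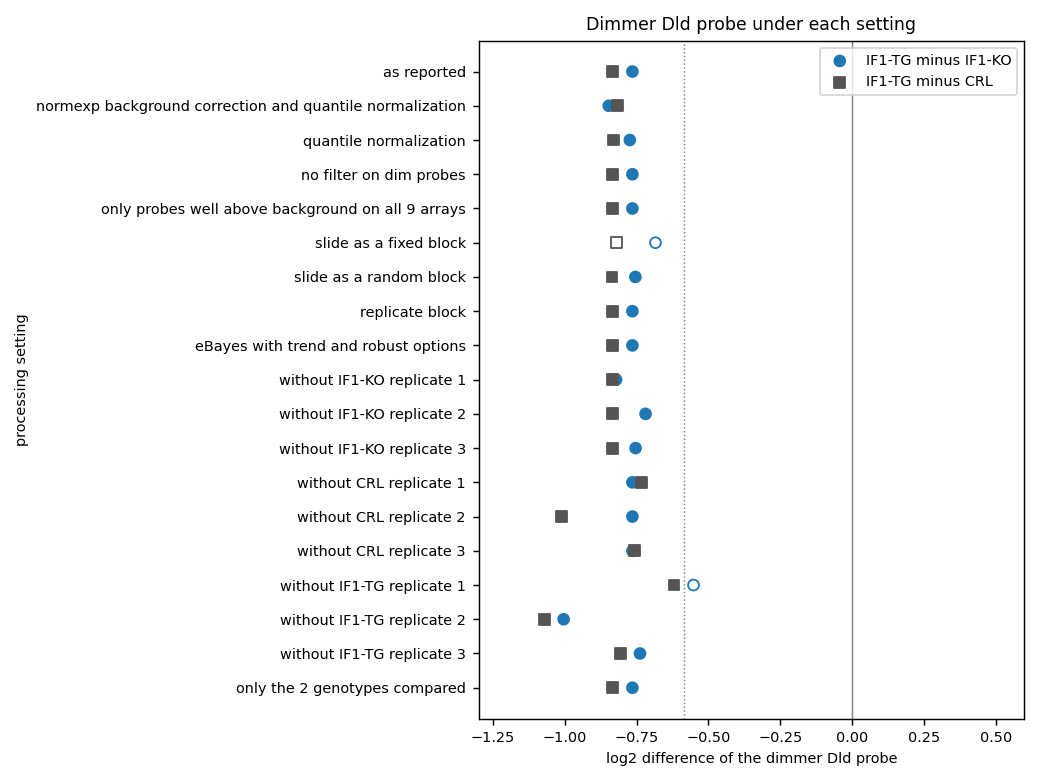
Log2 difference of the dimmer Dld probe (horizontal axis) in IF1-TG against IF1-KO (circles) and CRL mice (squares) under each processing setting (vertical axis); filled symbols pass both thresholds and the dotted line is a 1.5-fold decrease. All values are negative. The open symbols are those with slide as a fixed block, where IF1-TG rests on replicate 3 alone, and, against IF1-KO, without IF1-TG replicate 1.

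The kinases *Pdk1* to *Pdk4* phosphorylate the *Pdha1* protein and lower the flux of pyruvate into the cycle. None passed a threshold in the fit of all arrays on genotype, and their differences on the brightest probes lay between -0.28 and 0.07. *Pdk1* read -1.31, -1.07 and -1.28 in IF1-KO, -1.28, -1.25 and -1.27 in CRL and -1.45, -1.27 and -1.21 in IF1-TG mice. *Pdk2*, on its brighter probe, read 2.10, 2.47 and 2.30 in IF1-KO, 2.40, 2.03 and 2.24 in CRL and 1.75, 2.29 and 2.54 in IF1-TG mice. IF1-TG mice held both the lowest and the highest *Pdk2* value, and the genotypes overlapped for both kinases. *Pdk3* read 0.24, 0.21 and 0.31 in IF1-KO, 0.41, 0.29 and 0.38 in CRL and 0.24, 0.35 and 0.26 in IF1-TG mice. *Pdk4*, the kinase that fasting and fatty acids induce in many tissues, read -1.22, -1.10 and -1.12 in IF1-KO, -1.19, -0.93 and -1.13 in CRL and -1.59, -1.14 and -1.34 in IF1-TG mice. IF1-TG replicate 1 was the lowest array for *Pdk4*, whose difference from CRL was -0.28 (95% interval -0.60 to 0.05, unadjusted *P* = 0.085 in limma). Without IF1-TG replicate 2 it was -0.38 (unadjusted *P* = 0.028 in limma). With slide as a fixed block, where IF1-TG rests on replicate 3 alone, *Pdk2* turned from -0.03 to 0.37 in IF1-TG against CRL. In IF1-TG against IF1-KO, *Pdk2* turned from -0.10 to 0.35 in the same fit.

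The phosphatases reverse this phosphorylation. *Pdp1*, the calcium-stimulated form, read 2.06, 2.23 and 1.78 in IF1-KO, 2.33, 2.29 and 1.87 in CRL and 1.98, 2.73 and 1.83 in IF1-TG mice on its brightest probe, with IF1-TG replicate 2 the highest. Its 3 probes gave differences from -0.29 to 0.02 in IF1-TG against CRL, and none passed. Under the processing alternatives the brightest *Pdp1* probe ran from -0.41 to 0.19 in IF1-TG against CRL and from -0.36 to 0.33 in IF1-TG against IF1-KO. *Pdp2*, the insulin-responsive form, read 0.01, 0.08 and 0.06 in IF1-KO, -0.18, -0.06 and -0.12 in CRL and 0.18, 0.14 and 0.09 in IF1-TG mice. The 3 genotypes did not overlap for *Pdp2*, in the order CRL, IF1-KO, IF1-TG. IF1-TG was 1.19-fold above CRL (0.25, standard error 0.10, unadjusted *P* = 0.030 and adjusted *P* = 0.55 in limma), which is below the fold threshold, and the neighbours IF1-KO and CRL (0.17, -0.06 to 0.39) and IF1-TG and IF1-KO (0.09, -0.14 to 0.31) had intervals that include 0. With normexp and quantile normalization, IF1-KO minus CRL was 0.0093 and IF1-TG minus CRL 0.21 (unadjusted *P* = 0.13 in limma). With slide as a fixed block, where IF1-TG rests on replicate 3 alone, IF1-TG minus CRL was 0.21 as well. A further *Pdp2* probe was too dim on all 9 arrays to be kept.

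**Figure D5:**
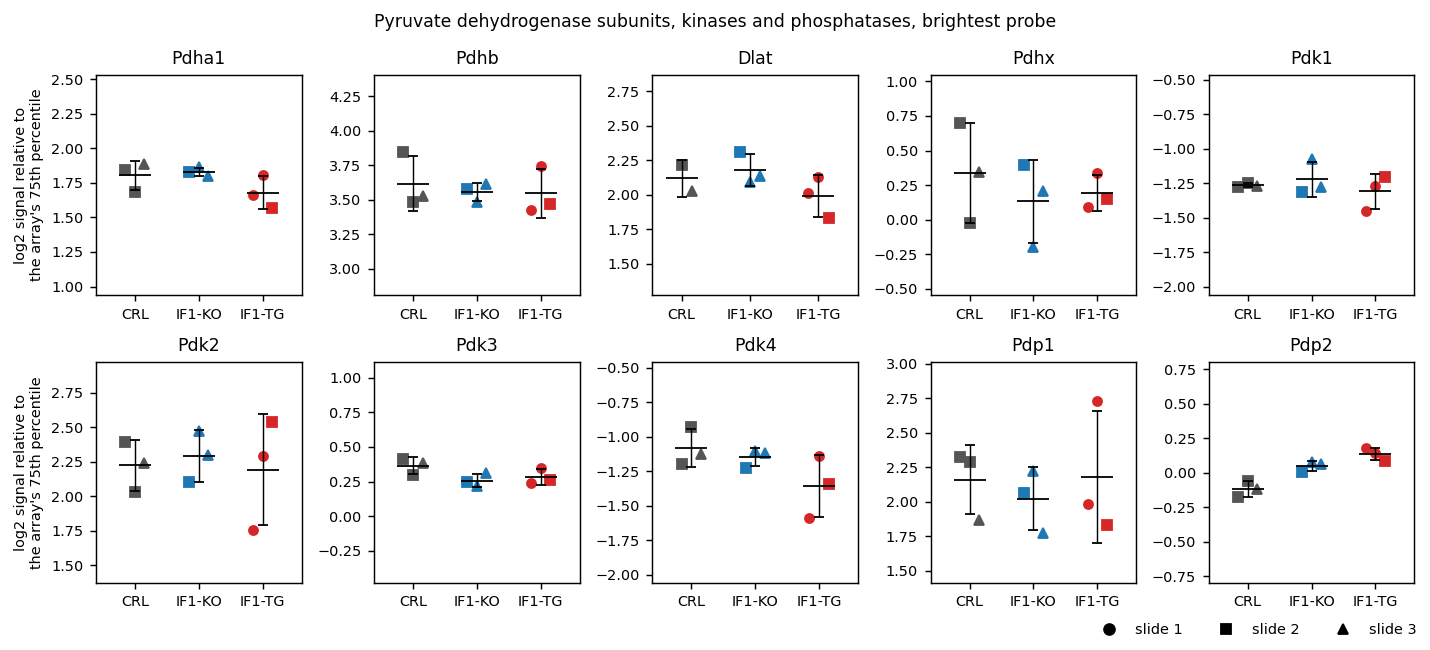
Log2 signal relative to the array's 75th percentile for the brightest probe of 4 subunits, 4 kinases and 2 phosphatases in each genotype, with points for single arrays (shape by slide) and bars for the mean ± SD; the vertical axes differ in position. The genotypes overlap in all panels but Pdp2, where CRL arrays lie from -0.18 to -0.06, IF1-KO arrays from 0.01 to 0.08 and IF1-TG arrays from 0.09 to 0.18.

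The 15 enzymes of the cycle itself had a median difference of -0.10 in both IF1-TG against IF1-KO and IF1-TG against CRL, and of -0.07 in IF1-KO against CRL. In IF1-TG mice the difference was negative for 13 of 15 against IF1-KO and for 12 of 15 against CRL, beside 48.7% and 50.1% of all genes. No enzyme was called in any comparison, beside 4.70%, 5.59% and 1.34% of all genes, and 1 of 15 passed the *P* threshold alone, in IF1-TG against CRL, where 10.5% of all genes did. That enzyme was *Suclg1*, the shared alpha subunit of succinyl-CoA synthetase, which read 3.54, 3.39 and 3.42 in IF1-KO, 3.62, 3.51 and 3.65 in CRL and 3.30, 3.47 and 3.23 in IF1-TG mice. All IF1-TG arrays lay below all CRL arrays, by a log2 difference of -0.26 (standard error 0.11, unadjusted *P* = 0.048 and adjusted *P* = 0.58 in limma). The unadjusted *P* of *Suclg1* ranged from 0.024 to 0.17 in limma under the alternatives, the highest with normexp and quantile normalization (-0.18), so that the pass depends on the processing. Its partners gave like values against CRL without passing, at -0.26 (95% interval -0.56 to 0.04) for *Suclg2*, the GTP-forming beta subunit, and -0.21 (-0.56 to 0.13) for *Sucla2*, the ATP-forming one.

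*Sdhb* encodes the iron-sulfur subunit of succinate dehydrogenase, the enzyme shared by the cycle and the respiratory chain. Its brighter probe gave the largest difference of any member's brightest probe in IF1-TG against IF1-KO and in IF1-KO against CRL. It read 5.14, 4.82 and 4.95 in IF1-KO, 4.20, 4.15 and 4.87 in CRL and 4.04, 4.92 and 4.25 in IF1-TG mice. These values fell into a high set (the 3 IF1-KO arrays, CRL replicate 3 and IF1-TG replicate 2) and a low set, with no array between 4.25 and 4.82. IF1-KO minus CRL was 0.57 (95% interval -0.04 to 1.17, unadjusted *P* = 0.064 in limma) and IF1-TG minus IF1-KO was -0.57 (-1.17 to 0.04, unadjusted *P* = 0.063 in limma), just inside the fold threshold of 0.58. Leaving out CRL replicate 3 moved the first to 0.80 (unadjusted *P* = 0.015 in limma) and leaving out IF1-TG replicate 2 moved the second to -0.82 (unadjusted *P* = 0.0090 in limma), and both then passed.

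The slides split this probe further. On slide 2 the array labelled IF1-KO replicate 1 was 0.97 above the mean of CRL replicates 1 and 2, while on slide 3 IF1-KO replicates 2 and 3 were 0.02 above CRL replicate 3. The dimmer *Sdhb* probe, in the stretch with an open frame, read 3.05, 2.96 and 2.93 in IF1-KO, 2.97, 2.95 and 3.04 in CRL and 2.77, 2.87 and 2.89 in IF1-TG mice. It did not show the high and low sets, and its differences were -0.14 in IF1-TG against both other genotypes and -0.01 in IF1-KO against CRL. *Sdhb* lies on chromosome 4, where its brighter probe is 8.45 Mb from that of *Atpif1* on mm9.

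The other subunits of succinate dehydrogenase differed little. *Sdha*, the flavoprotein, had differences between -0.09 and 0.11, and the membrane anchors *Sdhc* and *Sdhd* lay between -0.17 and 0.04 on their brightest probes, with the spot of *Sdhd* on IF1-TG replicate 2 left out as an outlier. *Fh1*, fumarase, gave the lowest value among brightest probes in IF1-TG against CRL. Its brighter probe, whose positions on mm9 span 2431 bases and so cross a gap, read 2.00, 2.32 and 2.56 in IF1-KO, 2.86, 2.37 and 2.59 in CRL and 1.80, 2.40 and 2.20 in IF1-TG mice. IF1-TG replicate 1 was lowest and CRL replicate 1 highest, and IF1-TG minus CRL was -0.47 (95% interval -0.96 to 0.01, unadjusted *P* = 0.054 in limma). That value passed both thresholds without CRL replicate 2 (-0.59) or without IF1-TG replicate 2 (-0.61), whereas the other *Fh1* probe differed by -0.0013.

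The remaining steps of the cycle did not pass a threshold in the fit of all arrays on genotype. *Cs*, citrate synthase, ranged from 4.92 to 5.55 over the 9 arrays, with differences of 0.13 in IF1-KO against CRL and -0.13 in IF1-TG against IF1-KO. The subunits of the NAD-linked isocitrate dehydrogenase differed between IF1-TG and CRL by -0.13 (*Idh3a*), -0.19 (*Idh3b*) and 0.01 (*Idh3g*). For *Idh3a*, the catalytic subunit, the IF1-TG arrays (2.84 to 2.90) lay below all others (2.91 to 3.12), by a margin that the fit did not separate from 0 (95% interval -0.37 to 0.11 against CRL). *Ogdh*, the first subunit of the 2-oxoglutarate dehydrogenase complex, had the highest difference of the cycle in IF1-TG against CRL at 0.22 (-0.07 to 0.51) on its brightest probe, 0.20 on the next and -0.08 on the dimmest. *Dlst*, the core of that complex, which shares *Dld* with pyruvate dehydrogenase, differed by -0.04 to 0.03. *Mdh2*, the mitochondrial malate dehydrogenase, differed by -0.10 to -0.03.

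Among the isocitrate and aconitate enzymes outside the NAD-linked step, *Aco1*, the cytosolic aconitase that doubles as an iron regulatory protein, had the highest difference of all members in IF1-TG against CRL. It read -3.14, -3.76 and -3.86 in IF1-KO, -3.45, -3.56 and -3.71 in CRL and -3.10, -3.72 and -2.71 in IF1-TG mice. IF1-TG replicate 3 was the highest array and IF1-TG replicate 2 lay among the lowest, so that the genotypes overlapped, with differences of 0.40 (95% interval -0.23 to 1.03) against CRL and 0.41 (-0.22 to 1.04) against IF1-KO. Without IF1-TG replicate 2 they were 0.67 and 0.68 and passed both thresholds (unadjusted *P* = 0.025 and 0.023 in limma). With slide as a fixed block the difference from CRL was 0.72, which rests on IF1-TG replicate 3, the highest array, alone. *Idh1* and *Idh2*, the NADP-linked isocitrate dehydrogenases of cytosol and mitochondria, differed by -0.22 to 0.19. For *Idh2* all IF1-TG arrays (2.45 to 2.69) lay above all IF1-KO arrays (2.15 to 2.45), with a difference of 0.19 (-0.11 to 0.50).

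The malate-aspartate shuttle carries reducing equivalents of glycolysis into mitochondria. *Got1*, its cytosolic aspartate aminotransferase, had the highest difference of all members in IF1-TG against IF1-KO. It read 4.92, 4.22 and 4.53 in IF1-KO, 4.86, 4.92 and 4.58 in CRL and 5.02, 4.90 and 4.98 in IF1-TG mice. The array labelled IF1-KO replicate 1 lay with the CRL and IF1-TG arrays, while IF1-KO replicate 2 was the lowest of the 9. IF1-TG minus IF1-KO was 0.41 (95% interval -0.0024 to 0.83, unadjusted *P* = 0.051 in limma), and over IF1-KO replicates 2 and 3 alone it was 0.59, past both thresholds (unadjusted *P* = 0.0066 and adjusted *P* = 0.66 in limma). On slide 2 the difference of IF1-TG replicate 3 from the array labelled IF1-KO replicate 1 was 0.07, with 1 array on each side. *Mdh1*, the cytosolic malate dehydrogenase, and *Got2*, the mitochondrial aminotransferase, differed by 0.15 and 0.16 in the same comparison, with intervals that include 0.

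*Pcx*, pyruvate carboxylase, *Glud1*, glutamate dehydrogenase, and *Me1*, the cytosolic malic enzyme, add carbon to the cycle or take it out. No probe of these genes passed a threshold in the fit of all arrays on genotype. *Me1* had the lowest difference of all members in IF1-KO against CRL, where its brightest probe read 1.71, 1.08 and 1.498 in IF1-KO, 1.83, 1.89 and 1.53 in CRL and 1.71, 1.68 and 1.31 in IF1-TG mice. IF1-KO replicate 2 was the lowest of these, the difference was -0.32 (95% interval -0.77 to 0.13), and the other *Me1* probes gave 0.07 each. In IF1-TG against CRL the brightest probe differed by -0.18, and by -0.57 with slide as a fixed block, where IF1-TG rests on replicate 3 alone. *Pcx* differed by -0.01 to 0.12 and *Glud1* by -0.06 to 0.06 on the brightest probe. The dimmer *Glud1* probe is placed on chromosome 7 of mm9, apart from the brighter one on chromosome 14, and its assignment is uncertain.

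Among the 10 members with more than 1 kept probe, the sign of the difference varied between probes for 8 genes in IF1-TG against IF1-KO, 7 in IF1-TG against CRL and 5 in IF1-KO against CRL. The median gap between the lowest and highest probe of a gene was 0.22, 0.25 and 0.16 on the log2 scale. The *Dld* gap of 0.92 in IF1-TG against CRL was the widest of these and that of *Sdhb* in IF1-KO against CRL (0.57) was the widest in its comparison.

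A related list of 32 genes covers pyruvate carriers, lipoate synthesis, assembly factors of succinate dehydrogenase, mitochondrial carriers, other malic enzymes and glutamate and GABA metabolism, of which 31 were on the array and 29 had a kept probe. In IF1-TG against IF1-KO none of the 29 was called, beside 4.70% of all genes. In IF1-TG against CRL and in IF1-KO against CRL 1 of 29 (3.45%) was called, beside 5.59% and 1.34% of all genes, and it was *Abat*, the GABA transaminase, by its dimmer probe. That probe read -7.41, -7.96 and -7.37 in IF1-KO, -6.10, -6.98 and -6.46 in CRL and -7.14, -7.22 and -7.23 in IF1-TG mice, and it was well above background only on the 3 CRL arrays. The probe was thus kept through the CRL arrays alone, where it was brighter, and the call rests on that selection. The brighter *Abat* probe differed by no more than 0.12 in any comparison. With the *P* threshold alone, the citrate carrier *Slc25a1* had a positive difference between IF1-TG and IF1-KO (0.32, unadjusted *P* = 0.027 in limma), below the fold threshold. The median difference of the related genes was 0.09, 0.03 and -0.03 in the 3 comparisons.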

How the data were processed

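Hippocampal RNA of 9 mice (3 per genotype, 9 months of age) was measured with 1 single-dye Agilent array per mouse. The arrays lay on 3 slides, with only IF1-TG mice (replicates 1 and 2) on slide 1, no IF1-TG mouse on slide 3 (CRL replicate 3, IF1-KO replicates 2 and 3) and the remaining 4 arrays on slide 2. With slide as a fixed block, the IF1-TG side of every difference therefore rests on IF1-TG replicate 3 alone. Genotypes and replicate numbers come from the sample labels. The authors deposited spot intensities of Agilent Feature Extraction 10.7.3.1 with the background subtracted and without normalization between arrays. The deposited mean and local background intensities served for 1 alternative, and the deposited marks of spots (well above background, outlier) were used as they stand. No spot was saturated. Probe positions are on mm9. The submitters' notes name limma, and the normalization between arrays is not given in the sources used here.

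From each log2 processed intensity, the 75th percentile of its array was subtracted. Control and outlier spots were left out, and a probe had to be well above background in all 3 mice of some genotype, which left 27991 of 39429 probes and 49 of the 50 of the members. Replicates of a genotype correlated at 0.983 to 0.992. Probes were fitted on genotype over all 9 arrays with limma 3.58.1 (lmFit and eBayes) in R 4.3.3, and *P* values were adjusted by Benjamini-Hochberg over all kept probes. The call (1.5-fold with *P* under 0.05, unadjusted) follows the study's methods. *P* values measure the spread between these mice, and the number of arrays limits the precision. The steps were tested on simulated data.

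The values of every array are given for the complex, its kinases and phosphatases, members past the *P* threshold and the 3 largest differences per comparison, and the other members by range. The members, the related list and the 11 marker lists were chosen with earlier results of these data known. The related and marker lists are genes of standard knowledge, and all 35 member names matched RefSeq symbols or synonyms. Alternatives tried were normexp (offset 50) with quantile normalization, quantile normalization alone, other filters on dim probes, slide or replicate number as a block, only the 2 genotypes compared, trend and robust eBayes, the mean of a gene's probes and each array left out. Not every result of the related list is reported here.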

Additional observations from a re-analysis of the deposited data

How the results depend on the processing

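The number of members called was 1 in IF1-TG against IF1-KO, 1 in IF1-TG against CRL and 0 in IF1-KO against CRL. With normexp and quantile normalization it was 2 in each IF1-TG comparison (*Dld* with *Sdhb* or *Fh1*), and without a filter 2 in each (*Dld* with the *Pdp2* probe that was dim on all arrays). With the mean of a gene's probes it was 0 in each. Counts with slide as a fixed block are left out, because IF1-TG rests on replicate 3 alone in that fit. Leaving out 1 array gave 0 to 3 against IF1-KO, 1 to 3 against CRL, and 0 to 1 in IF1-KO against CRL. The 0 came without IF1-TG replicate 1, the 3 without IF1-TG replicate 2 (*Aco1*, *Dld* and *Sdhb* or *Fh1*), a count of 2 without the array labelled IF1-KO replicate 1 (*Dld*, *Got1*) or CRL replicate 2 (*Dld*, *Fh1*), and the 1 in IF1-KO against CRL without CRL replicate 3 (*Sdhb*).

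The median difference of the members moved with normexp and quantile normalization together to -0.11 in IF1-TG against CRL and -0.12 in IF1-KO against CRL, and with slide as a fixed block to -0.081 in IF1-TG against CRL. Leaving out 1 array gave medians of -0.058 to 0.015 (IF1-TG against IF1-KO), -0.077 to -0.011 (IF1-TG against CRL) and -0.084 to -0.0053 (IF1-KO against CRL). The dimmer *Dld* probe ranged from -1.004 to -0.55 against IF1-KO and from -1.07 to -0.62 against CRL (adjusted *P* from 0.36 to 0.997 and from 0.19 to 0.82 in limma). Of 1020 values of named members under the alternatives, 981 stayed within their spread and call, 26 moved by more, 3 lost and 10 gained a call, and 63 changed sign, none of them called. Replicate numbers did not pair the samples: the correlations of same-numbered deviations were -0.17 to 0.12, and with the replicate block the counts were 1, 1 and 0 and the medians -0.03, -0.03 and -0.06. The causes were not tested.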
